A study of Rattus norvegicus with 8 samples.

Results

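The genes described here act at the start of autophagy and in building the autophagosome, the vesicle that carries cell content to the lysosome. They are Ulk1, Becn1, Wipi1, Gabarap, Gabarapl1, Gabarapl2, Map1lc3a, Map1lc3b, Sqstm1 and Bnip3. Every gene spot of the array whose gene name equals one of these symbols was taken, with all probes kept apart. This gave 15 probes for the 10 genes, of 30367 gene probes on the array. Of these, 14 probes of 9 genes passed the filter on dim probes, and the single probe of Becn1 did not.

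The series, titled as a study of muscle atrophy in the rat, set RNA of castrated rats that had received testosterone propionate against RNA of castrated controls. On each of 8 two-colour arrays, RNA of a treated sample was paired with RNA of a control sample, on 4 arrays at 8 h and on 4 arrays at 24 h. The animals were adult male Wistar rats aged 120 ± 12 days, and the labels call all of the material castrated rat cells (C3d), so that castration is shared by treated and control samples. The treated rats received a single subcutaneous dose of 4 mg/kg in 1 mL/kg of corn oil. Whether the controls received oil, which muscle was taken, and whether an array holds RNA of 1 animal or of a pool is not given in the sources used here. Treated RNA was labelled with Cy3 on replicates 1 and 2 at 8 h and on replicates 3 and 4 at 24 h, and with Cy5 on the other arrays. The p-values measure the spread between these arrays, and they would be too small if a dye-swapped pair repeats the same extracts. The arrays of each time lie on 1 slide, so that time and slide cannot be told apart.

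In autophagy, the kinase ULK1 and the lipid kinase complex that holds Beclin 1 start a membrane, on which WIPI proteins mark the site of growth. Small ubiquitin-like proteins of the LC3 and GABARAP families are then attached to the membrane, and receptors such as p62 (Sqstm1) and BNIP3 tie cargo to them. In skeletal muscle this route breaks down proteins and mitochondria, and it is known to be driven in fasting and in wasting, in part through FoxO transcription factors.

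The probes that carry the main differences are shown by their last 30 of 60 bases, because different probes of a gene gave different values. Capitals mark a stop codon that ends a reading frame otherwise open over the whole probe, and positions are in rn4, the build named in the scanner files.
Gabarapl1, probe A_44_P1007933: gtcaattgctgtcaggccagggaaataaaa
Gabarapl1, probe A_64_P156684: tacagtgatgaaagtgtctacgggaaaTGA
Ulk1, probe A_64_P039387: tcatatcagtttaagaaaataaaatttgga
Sqstm1, probe A_44_P367550: ccctgagcacagatccaagcagctgtggct
Sqstm1, probe A_64_P149735: gctgtacattacacatccgtttaatttttt
Bnip3, probe A_64_P018726: gtcccacacttaactcaggtgtgctaaaaa
The Gabarapl1 probes lie on the plus strand at chr4:166811168-166811227 and chr4:166810026-166810085, the first starting 1142 bases beyond the start of the second, which ends in the stop codon. The Ulk1 probe lies at chr12:46022440-46022499 on the plus strand. The Sqstm1 probes lie on the minus strand at chr10:35751726-35751785, described in the array file as transcript variant 1, and at chr10:35759331-35759390, described as variant 2. The Bnip3 probe lies on the minus strand at chr1:198683030-198683089. None of the 15 probes shared a stretch of 20 bases with any other gene probe of the array. Exon and UTR positions were not analysed here.

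Values are log2 ratios of treated over control within an array, so that -1 is a 2-fold lower level in the treated RNA, and levels are normalized intensities in arbitrary units after an offset of 50 was added to each corrected signal. Between 731 and 927 of 42877 gene spots were flagged as outliers and left out on an array. The SD of the log2 ratio over the 12074 kept probes was 0.437 on replicate 1 at 8 h, 0.180 to 0.198 on the other arrays at 8 h, and 0.235 to 0.303 at 24 h. Replicate 2 at 8 h correlated with the others of its time at -0.12 to 0.28. No spot of the 15 probes was saturated. Of 12 skeletal muscle markers, 11 were kept.

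At 24 h the treated samples held less RNA of Gabarapl1, on 1 of its 2 probes, and of Ulk1, at 2.35-fold and 2.0-fold lower levels. Sqstm1, on 1 of its 2 probes, and Bnip3 were also lower, but both calls were lost under several alternatives given below. No member passed with each array centred on its median. The other tested members did not pass, and Becn1, which missed the filter, was not tested. In these bulk samples, fewer cells of a type and less RNA per cell cannot be told apart. In the fit over all kept probes with limma, 4 of the 14 probes had a Benjamini-Hochberg adjusted p below 0.05, all lower, against 6.9% of 12073 tested probes in either direction and 2.75% lower. Over the 14 probes the median log2 change was -0.20, against 0.00 over all tested probes. The members were chosen with earlier results of these data known, so that these comparisons with all probes are a description. At an unadjusted p below 0.05 there were 7 of the 14 probes and 2652 of all tested. At 8 h none of the 14 passed, against 0.0249% of 12069 tested probes. Both values rest on replicate 2 of that time: without it 1300 of all tested probes passed at 8 h in place of 3, and 1 of the 14 did, probe A_64_P000256 of Gabarapl2. At 8 h the median change was 0.03 over the 14 probes and -0.01 over all, and an unadjusted p below 0.05 was reached by 1 of the 14 and by 2036 of all tested.

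**Figure D1:**
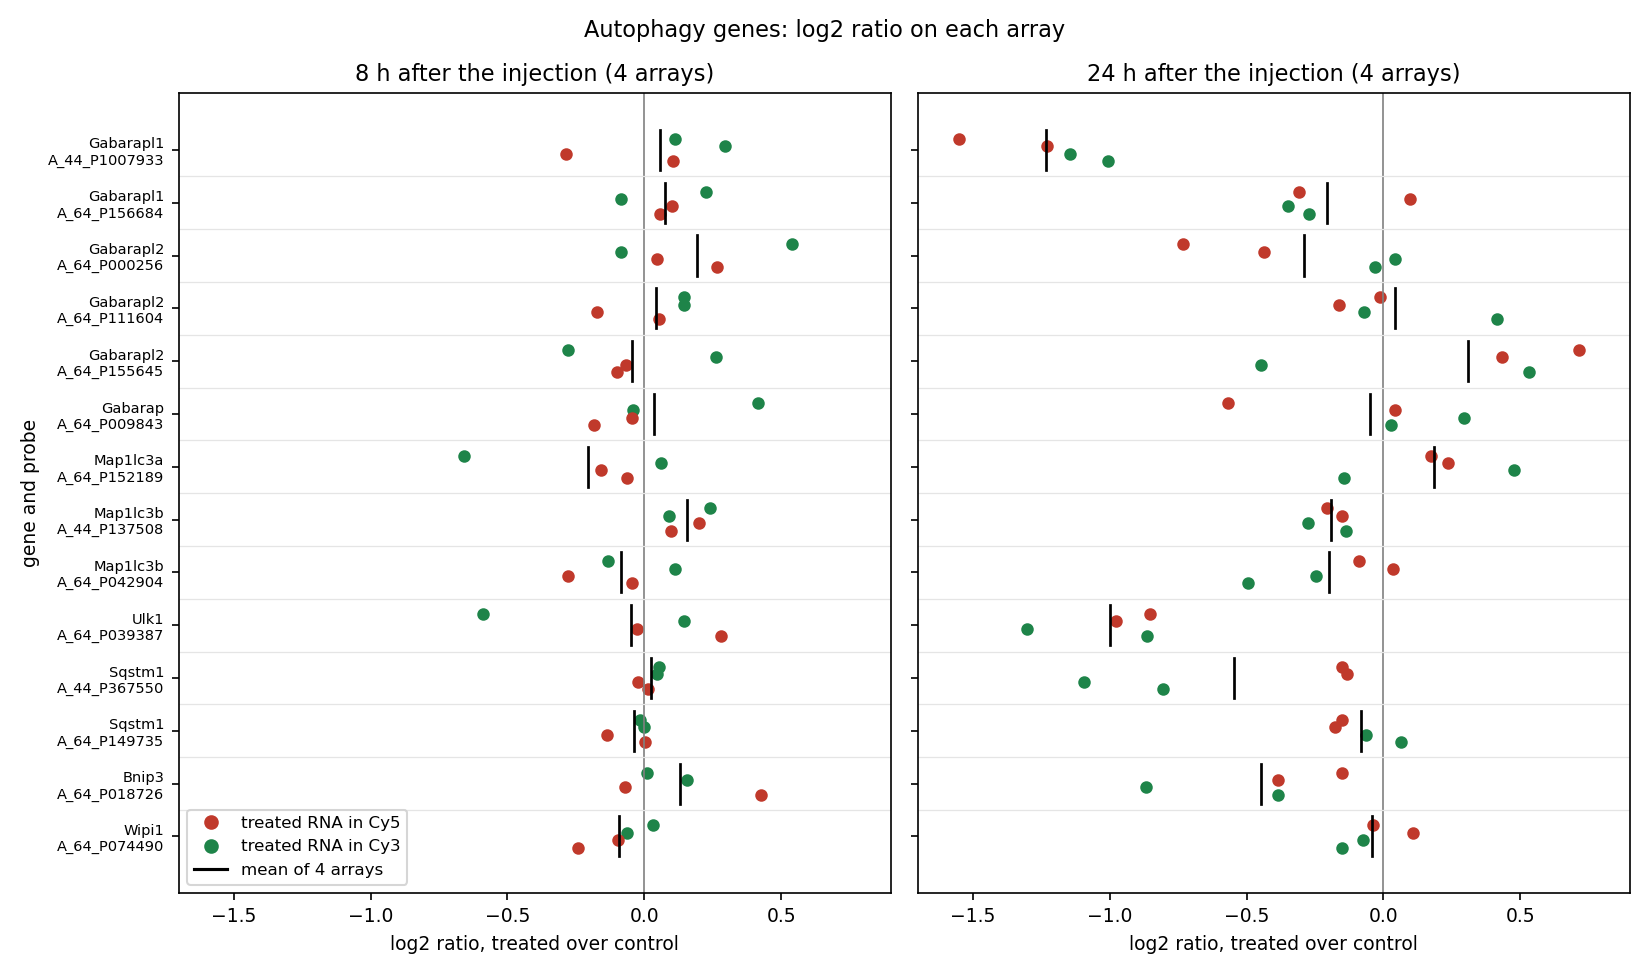
Log2 ratio of treated over control for the 14 kept probes (rows) on each array at 8 h (left) and 24 h (right). Points are arrays, coloured by the dye of the treated RNA, and bars are means of 4 arrays. At 24 h all 4 points of Gabarapl1 probe A_44_P1007933 lie between -1.55 and -1.01 and all 4 of Ulk1 between -1.30 and -0.85.

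Ulk1 encodes the kinase at the head of the pathway. On replicates 1 to 4 at 24 h its log2 ratios were -0.85, -0.98, -1.30 and -0.86. The treated level was 428, 328, 262 and 320, and the control level was 773, 646, 645 and 582. Every treated level was below every control level, and the mean ratio was -1.0 (SD 0.21, n = 4), 2.0-fold lower, with an adjusted p of 0.00159 and a 95% confidence interval of -1.27 to -0.73. Ulk1 ranked 24th lowest of the 12073 tested probes by its fitted value at 24 h, and the Gabarapl1 probe described below ranked 15th.

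At 8 h the ratios of Ulk1 were -0.59, 0.14, -0.03 and 0.28, with a mean of -0.05 (SD 0.38, n = 4). The treated and control levels overlapped, at 652 to 911 and 575 to 981, and the array with the lowest ratio was replicate 1, whose ratios spread most over all probes. The 95% confidence interval of -0.32 to 0.22 at 8 h lay apart from that at 24 h.

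Becn1, the Beclin 1 subunit of the lipid kinase complex, could not be measured with its 1 probe. That probe was well above background in the treated RNA on 1 of 4 arrays at 8 h and on 1 of 4 at 24 h, and in the control RNA on 0 of 4 and on 1 of 4. Wipi1, which binds the lipid that this complex makes, was read by the dimmest of the 14 probes. Its treated level was 73.1 to 89.0 and its control level 75.1 to 87.9 at 24 h, so that the groups overlapped. Its log2 change was -0.04 (SD 0.11, n = 4, adjusted p = 0.817, 95% confidence interval -0.20 to 0.12) at 24 h and -0.09 (SD 0.11, n = 4) at 8 h. Without the offset it was -0.13 at 24 h and -0.26 at 8 h, and from processed signals -0.30 and -0.17, none of which passed.

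Gabarapl1 belongs to the GABARAP family of proteins attached to the autophagosome membrane, and probe A_44_P1007933 gave the largest fall of the 14 in this fit, although with processed signals Ulk1 stood lower (-1.36 against -1.26). On replicates 1 to 4 at 24 h the log2 ratios were -1.55, -1.23, -1.15 and -1.01. The treated level was 914, 964, 891 and 1021, and the control level was 2679, 2257, 1973 and 2052. All treated levels lay within a narrow band below all control levels. The mean ratio was -1.23 (SD 0.23, n = 4), 2.35-fold lower, with an adjusted p of 7.01e-05 and a 95% confidence interval of -1.42 to -1.04. It was -1.39 over the pair of arrays with treated RNA in Cy5 and -1.08 over the pair in Cy3.

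The same probe gave 0.11, 0.29, -0.29 and 0.11 at 8 h. Its mean there was 0.06 (SD 0.24, n = 4, adjusted p = 0.755), and the treated levels of 2222 to 3506 overlapped the control levels of 2065 to 3072.

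Gabarapl1 probe A_64_P156684, at the end of an open reading frame, differed from it. At 24 h it gave -0.31, 0.10, -0.35 and -0.27, with a mean of -0.21 (SD 0.21, n = 4) that did not pass (adjusted p = 0.190, 95% confidence interval -0.40 to -0.02). Its treated level of 97.4 to 122 overlapped its control level of 114 to 143. This was a dim probe, so that the added offset was a large share of its level, and without the offset its change was -0.39 (adjusted p = 0.165), and -0.52 (adjusted p = 0.0929) from Agilent's processed signals.

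The ratio of the brighter Gabarapl1 probe minus that of the dimmer one was -1.24, -1.33, -0.80 and -0.74 on the 4 arrays at 24 h. The mean difference was -1.03 (SD 0.30, n = 4), with a two-sided exact permutation p of 0.125, the smallest that 4 arrays allow. The permutation p was 0.562 when adjusted over the 12 comparisons of probe pairs, those at 8 h and at 24 h together. At 8 h the mean difference was -0.02 (SD 0.32, n = 4, exact p = 0.875). With 4 arrays the permutation test could not have passed, so it does not decide whether the probes differ. Only 1 of the 2 probes passed in the fit at 24 h, and the other had the same sign on 3 of 4 arrays.

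**Figure D2:**
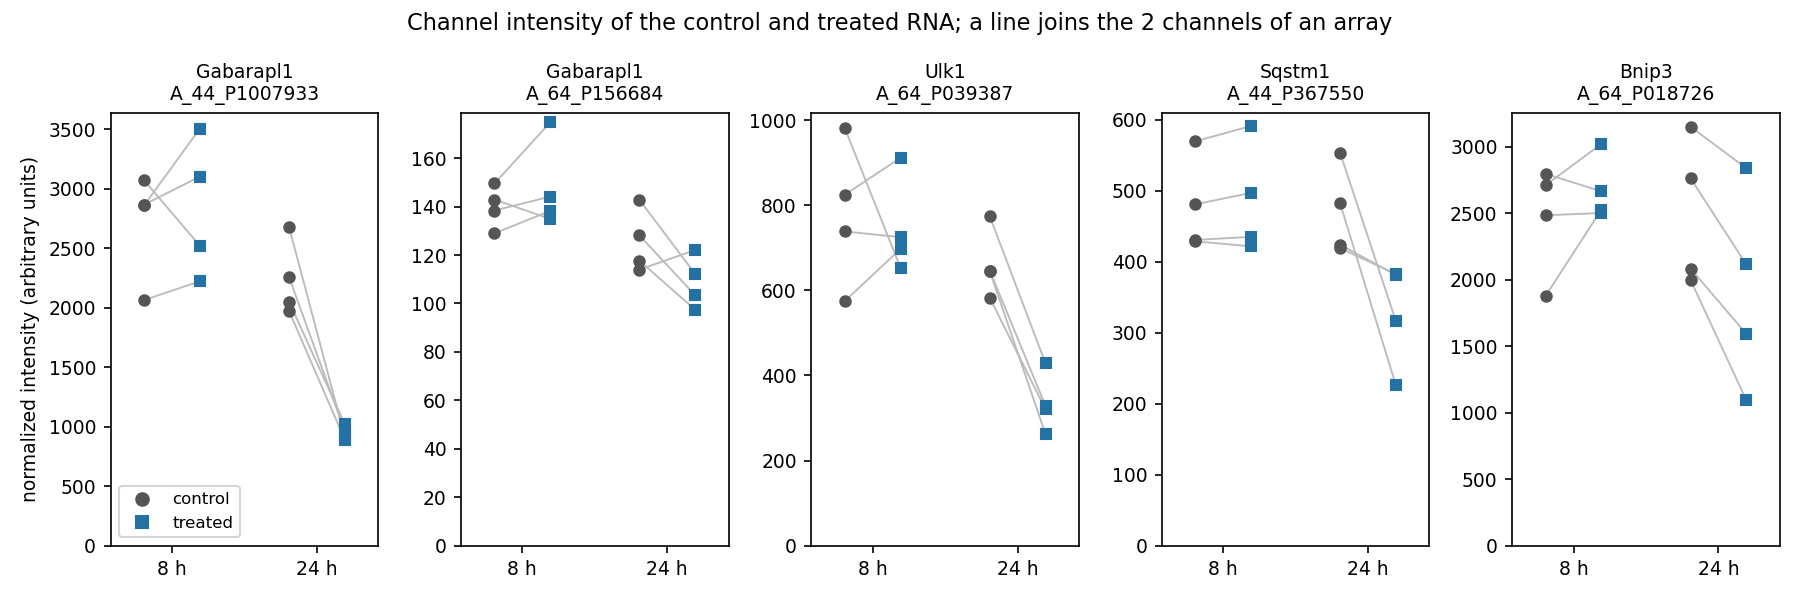
Normalized intensity (arbitrary units, axes from 0) in the control channel (circles) and the treated channel (squares) of each array, at 8 h and 24 h, for both Gabarapl1 probes, Ulk1, Sqstm1 and Bnip3. Lines join the channels of an array, and at 24 h the treated points lie below all control points for Gabarapl1 probe A_44_P1007933, Ulk1 and Sqstm1, but not for Gabarapl1 probe A_64_P156684 or Bnip3.

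Gabarap, the founding member of that family, gave -0.57, 0.04, 0.30 and 0.03 at 24 h. Its mean was -0.05 (SD 0.37, n = 4, adjusted p = 0.854, 95% confidence interval -0.30 to 0.20), with 1 array lower and 3 higher. At 8 h its mean was 0.04 (SD 0.26, n = 4).

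Gabarapl2, another member known for work at the Golgi and in late steps of autophagosome growth, was read by 3 probes, none of which passed at 24 h. Probe A_64_P000256 gave -0.73, -0.44, 0.04 and -0.03, with a mean of -0.29 (SD 0.36, n = 4, adjusted p = 0.177). Probe A_64_P155645 gave 0.71, 0.43, -0.45 and 0.53, with a mean of 0.31 (SD 0.52, n = 4, adjusted p = 0.296). Probe A_64_P111604 gave a mean of 0.04 (SD 0.26, n = 4, adjusted p = 0.838). The first was lowest and A_64_P155645 was highest on replicate 1, so that probes of this gene went opposite ways on the same array. Whether they passed depended on the setting. Without replicate 3 at 24 h probe A_64_P155645 stood at 0.56 (adjusted p = 0.0352). Without replicate 2 at 8 h probe A_64_P000256 stood at -0.29 (adjusted p = 0.0422) at 24 h and at 0.37 (adjusted p = 0.0317) at 8 h. With the 24 h arrays only, probe A_64_P000256 also passed at 24 h, at -0.29 (adjusted p = 0.0309). Under that setting 14.2% of all tested probes passed.

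Map1lc3b encodes LC3B, the usual marker protein of autophagosomes. Its probe A_44_P137508 gave 0.24, 0.09, 0.20 and 0.10 at 8 h, with a mean of 0.16 (SD 0.08, n = 4, adjusted p = 0.281). At 24 h it gave -0.21, -0.15, -0.28 and -0.14, with a mean of -0.19 (SD 0.06, n = 4, adjusted p = 0.110). All 4 arrays were above 0 at 8 h and all 4 below 0 at 24 h, and the difference of -0.35 between the times had an adjusted p of 0.0933. The probe was dim, with levels of 79.0 to 119 in both channels and times, and processed signals gave 0.52 at 8 h and -0.67 at 24 h (adjusted p = 0.261 and 0.0809).

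The brighter Map1lc3b probe, A_64_P042904, whose bases also end in a stop codon of an open frame, gave means of -0.09 (SD 0.16, n = 4) at 8 h and -0.20 (SD 0.23, n = 4, adjusted p = 0.257) at 24 h. It was below 0 on 3 of 4 arrays at each time and so did not show the opposite signs of the other probe. Map1lc3a, for the related LC3A protein, gave 0.17, 0.23, 0.48 and -0.14 at 24 h, with a mean of 0.19 (SD 0.26, n = 4, adjusted p = 0.441). At 8 h it had a mean of -0.20 (SD 0.32, n = 4), with -0.66 on replicate 1 and -0.16 to 0.06 on the others.

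Sqstm1 encodes p62, a receptor that binds ubiquitin-tagged cargo and LC3. Probe A_44_P367550, of variant 1, gave -0.15, -0.13, -1.09 and -0.81 at 24 h. Its treated level was 381, 382, 226 and 316, and its control level was 424, 419, 482 and 553. The levels did not overlap, but the size split by dye, at -0.14 over the arrays with treated RNA in Cy5 and -0.95 over those in Cy3. The mean was -0.55 (SD 0.48, n = 4), 1.46-fold lower, with an adjusted p of 0.0247. The call was lost without replicate 1, 3 or 4 at 24 h (-0.63, -0.40 and -0.52, adjusted p = 0.0740, 0.113 and 0.101), without a dye term (adjusted p = 0.0510), with processed signals (-0.69, adjusted p = 0.0737) and with each array centred on its median (-0.21, adjusted p = 0.487).

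The Sqstm1 probe of variant 2, A_64_P149735, gave -0.08 (SD 0.11, n = 4, adjusted p = 0.522) at 24 h. Its levels of 74.7 to 94.3 were among the dimmest of the 14. The ratio of the first Sqstm1 probe minus the second was -0.00, 0.05, -1.03 and -0.87 on the 4 arrays, so that the probes parted on the arrays with treated RNA in Cy3 and not on the others. The mean of that difference was -0.46 (SD 0.57, n = 4, exact permutation p = 0.375). At 8 h the probe of variant 1 gave 0.02 (SD 0.04, n = 4) and that of variant 2 gave -0.04 (SD 0.07, n = 4).

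Bnip3, a receptor on mitochondria that binds LC3, gave -0.15, -0.39, -0.87 and -0.39 at 24 h. The treated level was 2838, 2115, 1095 and 1594, and the control level was 3151, 2763, 1998 and 2084. All 4 ratios were below 0, while the treated and control levels overlapped across arrays. The mean was -0.45 (SD 0.30, n = 4), 1.36-fold lower, with an adjusted p of 0.0352. Leaving out any 1 of the 4 arrays at 24 h ended the call, at -0.52, -0.43, -0.33 and -0.52 without replicates 1 to 4 (adjusted p = 0.0951, 0.132, 0.160 and 0.0647). It was also lost with processed signals (-0.50, adjusted p = 0.0812), without the offset (-0.43, adjusted p = 0.10) and with median centring, where the change was -0.02 (adjusted p = 0.970). At 8 h Bnip3 stood at 0.13 (SD 0.22, n = 4).

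The change from 8 h to 24 h was tested as a difference within the same fit. It passed for 2 of the 14 probes, both lower, against 1.28% of 12069 tested probes in either direction and 0.539% lower. They were Gabarapl1 probe A_44_P1007933, with a difference of -1.29 (SE 0.12, adjusted p = 0.00201), and Ulk1, with -0.95 (SE 0.17, adjusted p = 0.0303). Bnip3 (-0.58, adjusted p = 0.0931) and Sqstm1 probe A_44_P367550 (-0.57, adjusted p = 0.126) did not pass. The median difference was -0.20 over the 14 probes and 0.03 over all tested, and 7 of the 14 and 1939 of all had an unadjusted p below 0.05. The Ulk1 difference missed the threshold without replicate 3 or 4 at 8 h (adjusted p = 0.0848 and 0.0873) and without replicate 1, 2 or 3 at 24 h (adjusted p = 0.113, 0.0789 and 0.0989), at values of -0.99, -0.87, -0.96, -0.91 and -0.88.

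**Figure D3:**
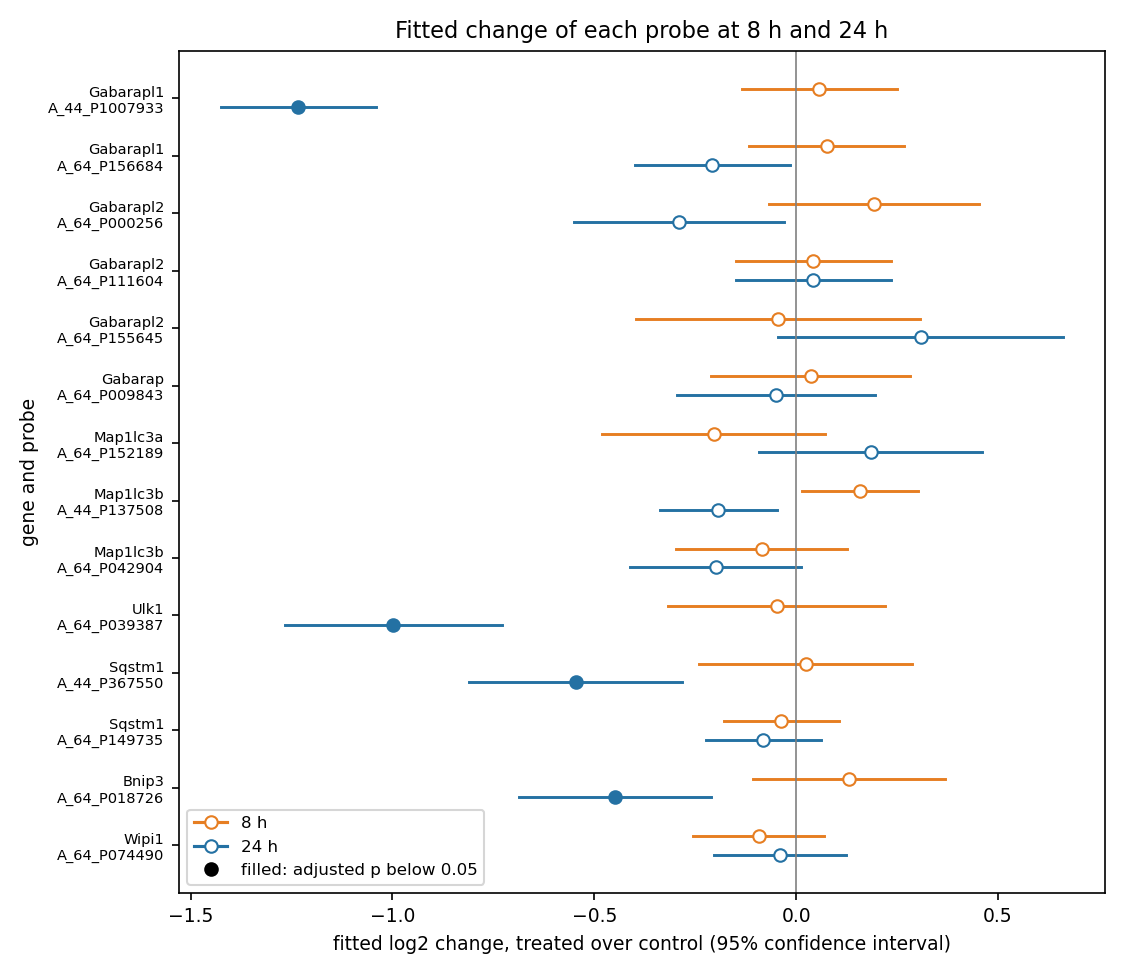
Fitted log2 change (points) with 95% confidence interval (lines) for each of the 14 kept probes at 8 h and 24 h, with filled points where the adjusted p was below 0.05. Filled points are found at 24 h for Gabarapl1 (-1.23), Ulk1 (-1.0), Sqstm1 (-0.55) and Bnip3 (-0.45), and none at 8 h.

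Centring each array on its median in place of the intensity-dependent loess curve moved the median of all tested probes to 0.15 at 24 h. The changes at 24 h were then -0.83 for Gabarapl1 probe A_44_P1007933 and -0.64 for Ulk1 (adjusted p = 0.0685 and 0.0684), and no member passed. The differences between the times were then -1.34 and -0.97 (adjusted p = 0.357 and 0.380). Under the other 20 alternatives both passed at 24 h.

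The promoters of Gabarapl1 and Ulk1 are shown because these genes fell together. RefSeq sequences of build GRCr8 were matched by symbol for 8 of the 10 genes, all but Map1lc3a and Becn1. The 250 bases before the annotated start of Gabarapl1 are chr4:164666082-164666331 and those of Ulk1 chr12:51511242-51511491, both on the plus strand, printed 5′ to 3′ with a match to one of 3 searched motifs in capitals.
Gabarapl1 promoter: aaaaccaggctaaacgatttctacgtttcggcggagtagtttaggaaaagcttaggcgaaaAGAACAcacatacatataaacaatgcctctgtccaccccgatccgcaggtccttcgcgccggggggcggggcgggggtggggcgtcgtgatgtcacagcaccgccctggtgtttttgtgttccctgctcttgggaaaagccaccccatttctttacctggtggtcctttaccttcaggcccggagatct
Ulk1 promoter: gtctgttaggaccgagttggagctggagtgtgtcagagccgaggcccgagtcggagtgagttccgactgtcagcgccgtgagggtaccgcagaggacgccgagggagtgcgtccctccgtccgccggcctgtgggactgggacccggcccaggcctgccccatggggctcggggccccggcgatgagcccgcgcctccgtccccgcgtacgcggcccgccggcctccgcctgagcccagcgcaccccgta
The motifs were searched on both strands. The androgen receptor half-site AGAACA was found in Gabarapl1, 189 bases before the start, and in 1 of the 8 promoters, against 17.5% of 33469 promoters. The FoxO core GTAAACA was found in 0 of the 8 and in 3.21% of all, and variants of these letters were not searched. The E-box CACGTG, which TFEB can bind, was found in Bnip3 alone of the 8 and in 5.59% of all. No searched motif lay in the Ulk1 window, and the 2 matches among the 8 lay in different promoters, so that none overlapped. GC content was 54.8% for Gabarapl1 and 73.6% for Ulk1, against a median of 51.2% over all promoters.

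Further autophagy genes were taken from a list of 68, of which 65 were on the array and 44 genes with 56 probes were kept. At 24 h 2 of the 44 genes fell and 2 rose, with 40 short of the threshold, and the median change of the 56 probes was -0.00. By probe, 5 of 56 or 8.93% passed, 2 lower and 3 higher, near the 6.9% of all tested probes (2.75% lower and 4.15% higher). At 8 h none of the 56 passed, against 0.0249% of 12069 tested probes. Without replicate 2 of that time 5 of the 56 passed at 8 h, 3 lower and 2 higher, as did 1300 of all tested probes. Between the times 1 passed, higher, or 1.79% against 1.28% of all tested probes in either direction and 0.746% higher. Atg4a, a protease that trims LC3 and GABARAP proteins and can release them from membranes, is named LOC678769 on the array, and its 2 probes gave the largest change of the list. Probe A_64_P014898 rose by 0.91 (SD 0.08, n = 4, range 0.80 to 1.00, adjusted p = 7.01e-05) and probe A_64_P035619 by 0.64 (SD 0.17, n = 4, range 0.44 to 0.86, adjusted p = 0.00456), so that both were higher on 4 of 4 arrays. At 8 h they stood at 0.35 and 0.39 (adjusted p = 0.159 and 0.271), again higher on 4 of 4 arrays, and both passed at 8 h without replicate 2 of that time (adjusted p = 0.0238 and 0.0128). The difference between the times was 0.56 (adjusted p = 0.0205) for the first probe and 0.25 (adjusted p = 0.403) for the second. Leaving out replicate 3 or 4 at 8 h, or any array at 24 h, put the first difference at 0.53 to 0.60 with an adjusted p of 0.0513 to 0.0841, and processed signals put it at 0.56 (adjusted p = 0.183).

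**Figure D4:**
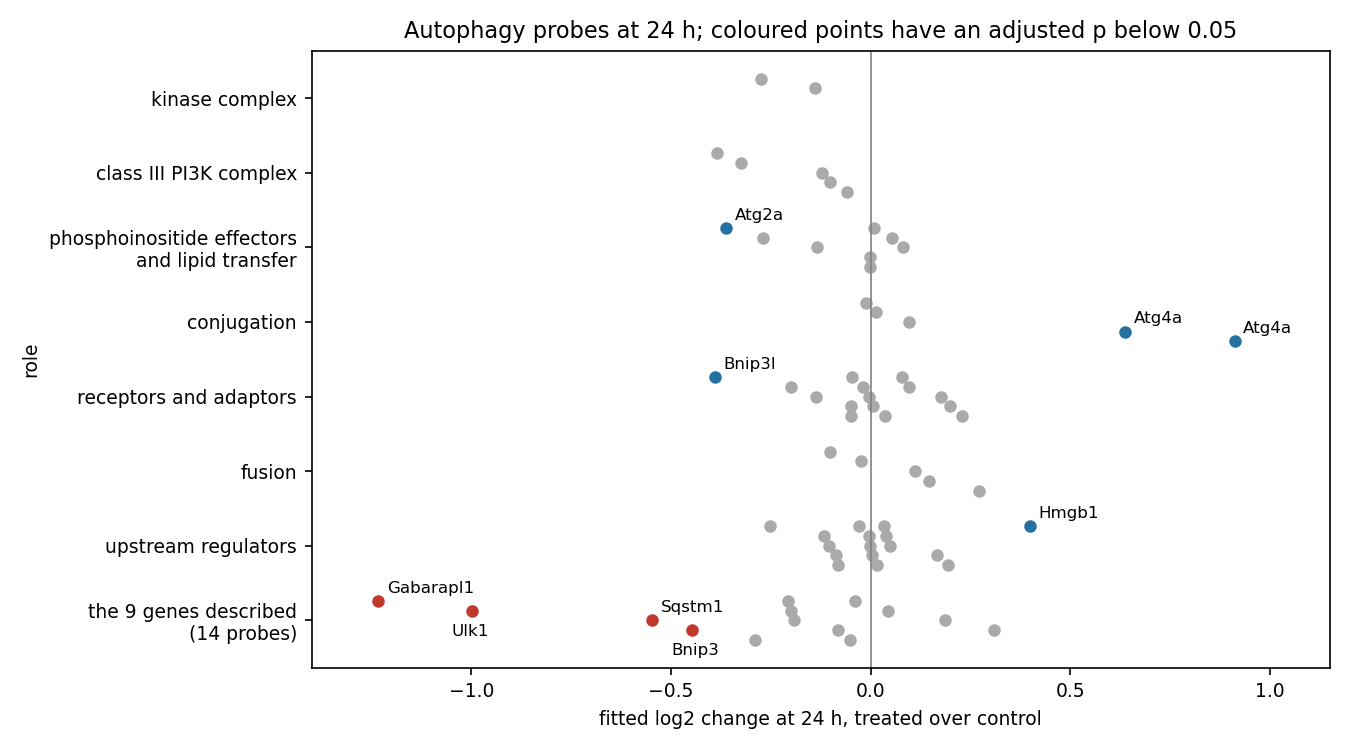
Fitted log2 change at 24 h of the 56 kept probes of other autophagy genes by role, with the 14 probes of the members in the lowest row. Coloured points have an adjusted p below 0.05, and the upper 7 rows hold 5 of them, for Atg4a (0.91 and 0.64), Hmgb1 (0.40), Bnip3l (-0.39) and Atg2a (-0.36).

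Atg2a, which moves lipids into the growing membrane, fell by 0.36 (SD 0.18, n = 4, adjusted p = 0.0379), and Bnip3l, a mitochondrial receptor related to Bnip3, by 0.39 (SD 0.19, n = 4, adjusted p = 0.0318). Hmgb1, a chromatin protein that can bind Beclin 1, rose by 0.40 (SD 0.21, n = 4, adjusted p = 0.0310) on 1 of its 3 kept probes, and the others stood at 0.17 and 0.03. These 3 calls were lost without replicate 3 at 8 h and without replicate 1, 2 or 4 at 24 h, and those of Atg2a and Bnip3l also without replicate 3 at 24 h and that of Hmgb1 without replicate 4 at 8 h. With processed signals they stood at -0.50, -0.42 and 0.38 (adjusted p = 0.0961, 0.120 and 0.158), and without the offset none passed either (adjusted p = 0.0533, 0.0639 and 0.0969). With median centring Atg2a stood at -0.11 and Bnip3l at -0.07 (adjusted p = 0.491 and 0.851), and Hmgb1 at 0.78 (adjusted p = 0.0415). The count of 5 called probes was 2 without replicate 3 at 8 h or replicate 1 or 2 at 24 h, and 3 without replicate 3 at 24 h.

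The 4 further genes of lowest p at 24 h did not pass. Nrbf2, a subunit of the lipid kinase complex, stood at -0.33 and -0.39 on its 2 probes (adjusted p = 0.0743 and 0.0859). The first passed without replicate 2 at 8 h (adjusted p = 0.0466) and the second without replicate 4 at 24 h (adjusted p = 0.0448). Both passed with array weights (adjusted p = 0.0325 and 0.0401) and with the 24 h arrays only (adjusted p = 0.0250 and 0.0385). The first also passed with no background subtraction (adjusted p = 0.0387). Foxo3, a transcription factor known to drive several of the members in muscle, stood at -0.25 (SD 0.04, n = 4, adjusted p = 0.0854). Its signal was dim, and it stood at -1.57 (adjusted p = 0.00159) from processed signals and at -0.81 (adjusted p = 0.0211) without the offset. It also passed without replicate 1 or 2 at 8 h (adjusted p = 0.0493 and 0.0388). The same held with no background subtraction, array weights or the 24 h arrays only (adjusted p = 0.0144, 0.0301 and 0.0342). Tp53inp2, which binds LC3, stood at 0.23 and 0.20 on 2 probes (adjusted p = 0.0765 and 0.157), and at 1.66 and 0.70 (adjusted p = 0.00385 and 0.0346) from processed signals. Both Tp53inp2 probes also passed with no background subtraction (adjusted p = 0.0268 and 0.0489). The first passed without the offset (0.73, adjusted p = 0.0242) and with array weights (adjusted p = 0.0335). Vamp8, which acts in fusion with the lysosome, stood at 0.27 (SD 0.18, n = 4, adjusted p = 0.0790), at 0.81 (adjusted p = 0.0448) without the offset and at 1.18 (adjusted p = 0.136) from processed signals, and it passed with array weights (adjusted p = 0.0347). By role at 24 h, against the shares of all tested probes given above, 0 of 2 probes of the kinase complex, 0 of 5 of the lipid kinase complex and 0 of 5 of fusion passed, 1 of 8 of the lipid effectors and 1 of 15 of receptors passed as lower, and 2 of 5 of conjugation and 1 of 16 of upstream regulators as higher.

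Among the genes whose ratios followed those of Gabarapl1 probe A_44_P1007933 most closely over the 8 arrays, of 12014 probes with a value on all of them, were Abhd4 (Pearson r = 0.988), Klhl38 (0.983), Ankrd54 (0.981) and Pim3 (0.968). Their changes at 24 h were -0.67, -1.94, -0.49 and -1.08. Those that followed Ulk1 were Anks3 (0.974), Art5 (0.970), Gtf2a1 (0.969), Ppp1r15a (0.961) and Cnppd1 (0.958), with changes of -0.14, -1.26, -0.07, -0.68 and -0.59 at 24 h. No gene named here is in both lists, and r between Gabarapl1 and Ulk1 was 0.825. These correlations share arrays, dyes and the split by time, and are given as a description.

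Markers of cell types moved with the treatment at 24 h as well, where 2.75% of 12073 tested probes passed as lower and 4.15% as higher. Of the 11 kept muscle fibre markers 2 fell and 1 rose, with a median of -0.38, and their summed level was 185050 to 214612 in treated and 250508 to 277788 in control RNA, without overlap, although some of these spots were saturated. Of 7 kept macrophage markers 3 rose and 0 fell. Their summed levels overlapped, at 1771 to 2796 in treated and 1593 to 1843 in control RNA. Of 5 fibroblast markers 3 rose and 0 fell, with a summed level of 8599 to 14801 in treated and 4369 to 6336 in control RNA. Of the adipocyte markers 1 of 3 kept rose, of the endothelial markers 1 of 3 kept rose, and of the erythrocyte markers 0 of 2 kept passed. All 7 markers of epithelium and male accessory glands missed the filter, as did Myh2, Cd14, Lep, Plin1, Tek and Alas2 of the other lists. At 8 h no kept marker passed, against 0.0249% of 12069 tested probes, a share that rests on replicate 2 of that time. The medians of the muscle fibre, macrophage, adipocyte, fibroblast, endothelial and erythrocyte markers were -0.06, -0.24, -0.17, -0.56, -0.10 and -0.91 at 8 h. At 24 h they were -0.38, 0.37, 0.39, 1.13, 0.14 and 0.55. The part of the marker shifts at 24 h in the falls of Gabarapl1, Ulk1, Sqstm1 and Bnip3 was not tested.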

How the data were processed

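Log2 ratios of treated over control were derived from the intensity of each channel (mean spot signal and median local background) in the scanner files deposited by the authors. Per the submitters' processing notes, the scans went through Agilent Feature Extraction, version 9.5.3.1. The deposited value table was the log2 ratio of Feature Extraction's processed signals, treated over control, with no further centring (largest difference 1.35e-05, medians of -0.144 to 0.0896).

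In R 4.3.3 with limma 3.58.1, background was corrected by normexp with an offset of 50, each array was normalized by loess with control spots at weight 0, outlier-flagged spots were left out and spots of a probe were averaged. A probe was kept if well above background on 3 or more of the 4 arrays for 1 or more of the 4 kinds of RNA (treated or control, 8 h or 24 h) (12074 of 30367 probes). The fit over all 8 arrays had a coefficient for each time and for dye, with eBayes, two-sided tests and Benjamini-Hochberg adjustment over all tested probes at 0.05. Probe pairs were compared by exact permutation tests. The fit at 24 h was tested on simulated log2 ratios, and the other steps were not. Gene names came from the array, and 21220 array probes were matched to RefSeq genes by accession or symbol.

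The number of arrays limits the precision. Replicate numbers did not pair the arrays. The members and the gene lists were chosen with earlier results of these data known. All members are named with all probes. Of the other autophagy genes, those past the threshold are named, filled up to 8 by the smallest p at 24 h, and for Gabarapl1 and Ulk1 the 5 most correlated genes, of which 1 is not reported here. There were 21 alternatives.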

Additional observations from a re-analysis of the deposited data

Results flagged for a closer look

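The change differed between 24 h and 8 h, by the test of the difference itself, for Gabarapl1 probe A_44_P1007933 (-1.29, adjusted p = 0.00201), Ulk1 (-0.95, adjusted p = 0.0303) and Atg4a probe A_64_P014898 (0.56, adjusted p = 0.0205). For Map1lc3b probe A_44_P137508 all 4 arrays were above 0 at 8 h and all 4 below 0 at 24 h, and the difference of -0.35 did not pass (adjusted p = 0.0933). That probe was dim, and the brighter Map1lc3b probe was below 0 on 3 of 4 arrays at each time.

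One array stood far from the other 3 of its time for 2 probes. Gabarapl1 probe A_64_P156684 gave 0.10 on replicate 2 at 24 h, against -0.35 to -0.27 on the others. Sqstm1 probe A_64_P149735 gave -0.14 on replicate 3 at 8 h, against -0.02 to 0.00 on the others. These were 2 of 54 groups of 4 arrays checked over 27 probes, where chance alone flags about 1 in 20.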

How the results depend on the processing

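The count of member probes past the threshold at 24 h (4) was 2 with processed signals or the authors' deposited table and 0 with median centring. It was 5 with the arrays of that time only and 2 to 5 with 1 array left out. The counts over all probes under these settings are given below. At 8 h (0) it was 0 to 1 with 1 array left out. Between the times (2) it was 0 with median centring, 4 with the replicate number as a block and 1 to 3 with 1 array left out. The block, tried although same-numbered arrays deviated together at r of only -0.26 to 0.17, left 4 members at 24 h. Between the times it added Sqstm1 probe A_44_P367550 and Bnip3 (adjusted p = 0.0377 and 0.0428), and at 24 h it ended the call of Bnip3l (adjusted p = 0.0546). Of the other autophagy probes, 5 at 24 h became 3 with median centring, 9 with no background subtraction, 9 with the arrays of that time only, 11 with array weights and 2 to 7 with 1 array left out. At 8 h, 0 became 0 to 5, and between the times 1 became 0 with processed signals, the deposited table, median centring or offset 0, and 0 to 1 with 1 array left out. Offset 0 was added after seeing the data, and the slide as a block was not run, because each slide holds 1 time. No named call changed direction.

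Over all tested probes, 833 (6.9%) passed at 24 h, 60.1% of them higher. The count was 575 (4.76%) with processed signals or the deposited table and 913 (7.56%) with no background subtraction. With median centring it was 437 (3.62%), 95.7% of them higher. It was 1618 (13.4%) with array weights, 1710 (14.2%) with the arrays of that time only and 208 to 1312 with 1 array left out. Without replicate 2 at 8 h, 1300 passed at 8 h in place of 3, and the alternatives with all arrays gave 0 to 9. Between the times, 155 became 83 with processed signals or the deposited table, 0 with median centring, 341 with the block, 305 with array weights and 33 to 629 with 1 array left out. At 24 h Ulk1 ranged from -1.36 to -0.64 over the alternatives and Map1lc3b probe A_44_P137508 from -0.67 to -0.13.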
